A study of Homo sapiens with 6 samples.

Results

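The Frizzled genes encode the cell surface receptors of Wnt proteins, and all 10 human members, FZD1 to FZD10, were examined among the 18417 genes of this experiment. Each member was found by its gene symbol on the array, and each had a single transcript cluster, the set of probes that measures a gene, so that no choice between clusters was needed. The cells were AGS, a human gastric adenocarcinoma line that is known to carry an activating mutation in CTNNB1, the gene of beta-catenin. One group was transfected with siRNA against CTNNB1 and the other with a control siRNA. Each had 3 Affymetrix Human Gene 1.0 ST arrays, and RNA was taken 48 hours after transfection. The titles call the arrays biological replicates; whether they came from separate passages or days is not stated, so the p-values cover the spread among these arrays only.

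A Frizzled receptor binds a Wnt protein through a cysteine-rich domain outside the cell and acts with the co-receptor LRP5 or LRP6. The pair recruits Dishevelled, which disables the complex that degrades beta-catenin. Beta-catenin then enters the nucleus and activates target genes with TCF and LEF factors. Frizzled receptors also act without beta-catenin, in planar cell polarity and calcium signalling. Several targets of beta-catenin act back on the receptors: RNF43 and ZNRF3 are ubiquitin ligases that remove Frizzled proteins from the cell surface, and LGR5 with R-spondins holds these ligases off. Beta-catenin therefore lies downstream of the Frizzled receptors, and the comparison asks whether the mRNA of the receptors and their partners differed when it was silenced.

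CTNNB1 was 10.27, 10.78 and 10.58 on the log2 scale on CTNNB1 siRNA replicates 1 to 3, against 11.92, 11.76 and 11.75 on the control arrays, a difference of -1.27 (SE 0.17, limma adjusted p = 0.232), so the target was lower on every array labelled as silenced. CTNNB1 siRNA replicate 1 stood apart, with a correlation across transcript clusters of 0.962 to 0.965 with the other arrays, against 0.983 to 0.988 among the rest. It lay outside the range of the other 5 arrays for 55.9% of the 19460 clusters tested, so the difference of each Frizzled gene is given with and without it. All 11 measured markers of gastric epithelium lay above the 95th percentile of olfactory receptor clusters, described below, on every array. The mean level of this list was 8.97 to 9.34 on the CTNNB1 siRNA arrays and 8.66 to 8.97 on the control arrays. Differences were positive for 9 of 11, against 49.2% of all clusters. The median was 0.33 (0.25 without CTNNB1 siRNA replicate 1), against -0.0045 (-0.0021) for all clusters. At an unadjusted p under 0.05 in limma were 3 higher and 1 lower members, against 3.04% and 2.6% of all clusters. Groups did not overlap for 4 higher and 1 lower members, against 6.81% and 6.8% of all clusters. TFF1, a trefoil peptide gene, had 1.79 and SOX2, a foregut transcription factor gene, -1.20, and 0 members passed in limma over all 6 arrays. TFF1 was highest on CTNNB1 siRNA replicate 1, and without that array it had 1.24 and passed (limma adjusted p = 0.0336). In that fit 10 of 19460 clusters passed, all higher. SOX2 was highest on control siRNA replicate 1, and had -0.74 without it. Of the other cell types, 0 of 5 endothelial, 2 of 7 fibroblast (COL1A1 and COL3A1) and 2 of 5 immune markers (CD68 and LYZ) lay above that line. Of all tested clusters, 62% lay above it on all 6 arrays. The mean level of the fibroblast list was 4.54 to 4.60 on the CTNNB1 siRNA arrays and 4.42 to 4.53 on the control arrays. The endothelial list was at 3.84 to 4.11 on the CTNNB1 siRNA arrays and 3.87 to 3.91 on the control arrays. The immune list was at 6.35 to 6.66 on the CTNNB1 siRNA arrays and 6.36 to 6.51 on the control arrays, and the part of these lists, the gastric one included, in the Frizzled values was not tested.

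Across the family, 0 of 10 Frizzled genes passed the threshold of an adjusted p of 0.05 in limma, where 1 of 19460 clusters (0.00514%) passed. At an unadjusted p under 0.05 there was 1 member, FZD3, against 5.64% of all clusters, so the family's share was close to what that background gives for 10 genes. Differences were positive for 5 members and negative for 5. The median difference was 0.012 on the log2 scale for the family and -0.0045 for all clusters tested. Without CTNNB1 siRNA replicate 1 these medians were 0.11 and -0.0021. FZD3 was also the only member whose groups did not overlap, and it lay lower, where 13.6% of all clusters had groups apart (6.8% lower and 6.81% higher). Without CTNNB1 siRNA replicate 1, groups of 2 and 3 arrays were apart for 5 members, FZD5 and FZD8 higher and FZD3, FZD6 and FZD7 lower, where 25.7% of all clusters were apart. In that fit 2 members, FZD3 and FZD5, were at an unadjusted p under 0.05, against 7.34% of all clusters, and differences were positive for 7 members and negative for 3. These counts without the array were added after the data had been seen.

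**Figure D1:**
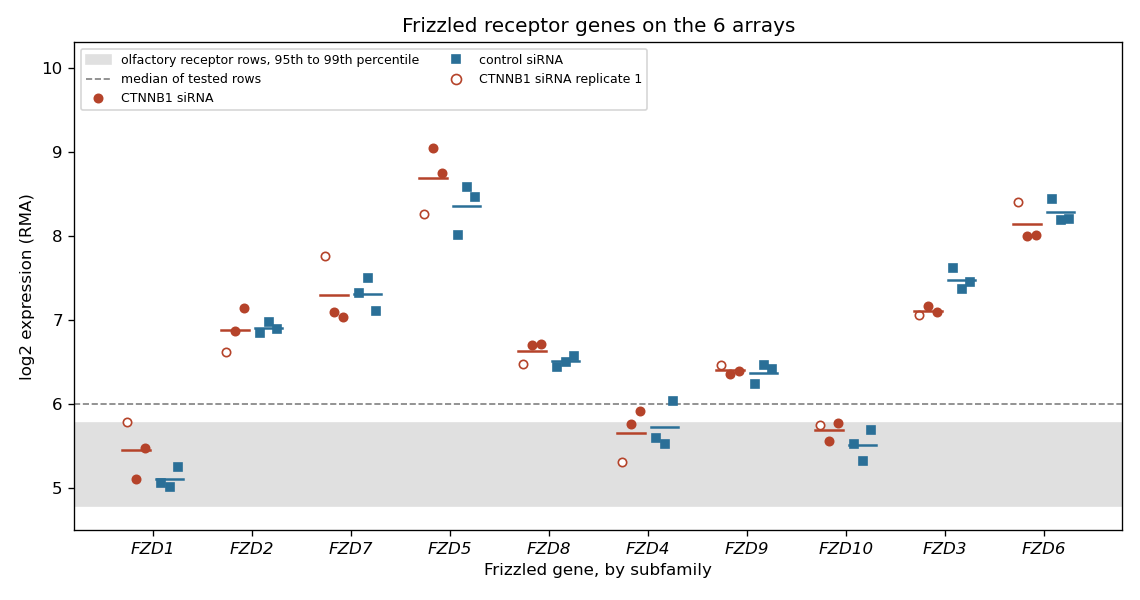
Log2 expression of each Frizzled gene on the 6 arrays, with CTNNB1 siRNA arrays as circles (open for replicate 1), control siRNA arrays as squares and group means as bars. The grey band spans the 95th to 99th percentile of olfactory receptor clusters over the arrays, and FZD1, FZD4 and FZD10 have arrays within it while the other 7 genes lie above it on all 6 arrays.

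Which receptors the cells expressed was read from the distance of each cluster to that of 381 clusters of olfactory receptor genes, which are largely silent outside the olfactory epithelium. All 10 Frizzled genes lay above the 95th percentile of these clusters on all 6 arrays, a line at 4.79 to 5.03 on the log2 scale that 62% of all tested clusters passed. Of these, 7 members (FZD2, FZD3, FZD5, FZD6, FZD7, FZD8 and FZD9) also lay above the 99th percentile, at 5.35 to 5.77, on every array, as did 51% of all clusters. The same 7 lay above the median of all tested clusters on every array, as did 44.9% of clusters. FZD1 was above the 99th percentile on 1 array, FZD10 on 3 and FZD4 on 4, so these 3 receptors could not be set apart from the brightest olfactory receptor clusters. A cluster's brightness also depends on its probes, and the receptors are not ranked here as amounts of RNA.

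FZD3 and FZD6 form a subfamily that is known mainly for planar cell polarity, in hair follicles, skin and the neural tube of mice. FZD3 (cluster 8145611) was 7.06, 7.17 and 7.09 on CTNNB1 siRNA replicates 1 to 3, against 7.61, 7.37 and 7.45 on control siRNA replicates 1 to 3. Every CTNNB1 siRNA array lay below every control array, with a gap of 0.20 between the groups, and the 3 CTNNB1 siRNA arrays differed little among themselves. The means were 7.11 ± 0.055 (SD, n = 3) after CTNNB1 siRNA and 7.48 ± 0.12 (SD, n = 3) in control cells. The log2 difference was -0.37 (SE 0.14), or 77.4% of the level in control cells (95% confidence interval 62.4% to 96.1%). The limma adjusted p over all clusters was 0.816, so FZD3 did not pass, and 14.1% of all clusters differed by at least as much in either direction. A complete separation of 3 arrays from 3 cannot give a 2-sided exact permutation p below 0.1. Without CTNNB1 siRNA replicate 1 the difference was -0.35 (SE 0.14, limma adjusted p = 0.669), and it stayed between -0.42 and -0.30 whichever array was left out. The unadjusted p in limma was 0.026 over all arrays and at most 0.078 with 1 array left out. It was not under 0.05 without CTNNB1 siRNA replicate 3, control siRNA replicate 1 or control siRNA replicate 3.

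FZD6, which in other cells is reported to counteract beta-catenin signalling, was 8.40, 8.00 and 8.00 on CTNNB1 siRNA replicates 1 to 3, against 8.44, 8.19 and 8.20 on the control arrays. The groups overlapped through CTNNB1 siRNA replicate 1, while replicates 2 and 3 lay below all 3 controls. The log2 difference was -0.14 (95% confidence interval -0.53 to 0.24), and -0.28 (-0.60 to 0.048) without that array, with limma adjusted p of 0.855 and 0.713. FZD6 was between the 79.9th and 84.9th percentile of all clusters on the arrays, and FZD3 between the 65.8th and 73.7th.

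FZD5 and its close relative FZD8 are receptors of canonical Wnt signalling, and FZD5 is known as a receptor of the gut epithelium, required for Paneth cell maturation in mice. FZD5 (cluster 8058498) was 8.26, 9.04 and 8.74 on CTNNB1 siRNA replicates 1 to 3, against 8.01, 8.58 and 8.46 on the control arrays. CTNNB1 siRNA replicates 2 and 3 lay above all controls and replicate 1 lay between them, so the groups overlapped. The means were 8.68 ± 0.39 (SD, n = 3) after CTNNB1 siRNA and 8.35 ± 0.30 (SD, n = 3) in control cells, a log2 difference of 0.33 (95% confidence interval -0.22 to 0.88, limma adjusted p = 0.816). FZD5 had the widest confidence interval of the family, and the data allow anything from 86.1% to 184% of the control level. Without CTNNB1 siRNA replicate 1 the difference was 0.54 (0.092 to 0.99), the groups no longer overlapped, and the adjusted p in limma was 0.643. It was 0.15 without CTNNB1 siRNA replicate 2 and 0.16 without control siRNA replicate 1, so single arrays moved its size more than for FZD3.

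FZD8 was 6.47, 6.71 and 6.72 on CTNNB1 siRNA replicates 1 to 3, against 6.44, 6.50 and 6.58 on the control arrays. Here too CTNNB1 siRNA replicates 2 and 3 exceeded all controls and replicate 1 did not. The log2 difference was 0.12 (95% confidence interval -0.19 to 0.44), and 0.20 (-0.094 to 0.50) without replicate 1, and neither passed in limma (adjusted p = 0.848 and 0.753).

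FZD1, FZD2 and FZD7 are closely related receptors, and FZD7 is known as a Wnt receptor of gastric and intestinal stem cells in mice. FZD7 (cluster 8047487) was 7.75, 7.10 and 7.04 on CTNNB1 siRNA replicates 1 to 3, against 7.32, 7.49 and 7.11 on the control arrays. The highest of the 6 arrays was CTNNB1 siRNA replicate 1, and the other CTNNB1 siRNA arrays were the lowest 2 of the 6. The means were 7.30 ± 0.40 (SD, n = 3) after CTNNB1 siRNA and 7.31 ± 0.19 (SD, n = 3) in control cells. The log2 difference was -0.0091 (95% confidence interval -0.51 to 0.50) over all arrays and -0.24 (-0.59 to 0.11) without replicate 1. The limma adjusted p was 0.993 and 0.754, and the intervals allow changes in either direction, so these arrays do not show that FZD7 stayed level.

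FZD2 was 6.61, 6.87 and 7.14 on CTNNB1 siRNA replicates 1 to 3, against 6.84, 6.97 and 6.89 on the control arrays, a log2 difference of -0.026 (95% confidence interval -0.41 to 0.36). The controls lay within the span of the CTNNB1 siRNA arrays, and without replicate 1 the difference turned to 0.11. FZD1, one of the receptors not set apart from olfactory receptor clusters, was 5.78, 5.11 and 5.48 on CTNNB1 siRNA replicates 1 to 3, against 5.05, 5.01 and 5.25 on the control arrays. Its log2 difference was 0.35 (95% confidence interval -0.094 to 0.80, limma adjusted p = 0.816), and 0.19 without replicate 1, which was its highest array. RMA compresses differences of dim clusters, so a fold for FZD1 is uncertain.

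FZD4, FZD9 and FZD10 make up the remaining subfamily. FZD4, which also binds the ligand norrin in retinal vessels, was 5.31, 5.76 and 5.91 on CTNNB1 siRNA replicates 1 to 3, against 5.60, 5.52 and 6.04 on the control arrays. Its log2 difference was -0.060 (95% confidence interval -0.55 to 0.43), and it turned to 0.11 without CTNNB1 siRNA replicate 1. FZD9, known for roles in bone and neural progenitors of mice, was 6.47, 6.36 and 6.39 on CTNNB1 siRNA replicates 1 to 3, against 6.24, 6.46 and 6.42 on the control arrays. It differed by 0.033 (-0.28 to 0.34), and by 0.0016 without CTNNB1 siRNA replicate 1. FZD10 was 5.75, 5.55 and 5.77 on CTNNB1 siRNA replicates 1 to 3, against 5.52, 5.32 and 5.69 on the control arrays, a log2 difference of 0.18 (-0.17 to 0.53), and 0.15 without CTNNB1 siRNA replicate 1. The groups overlapped for all 3 genes, and their limma adjusted p was 0.956, 0.962 and 0.825.

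**Figure D2:**
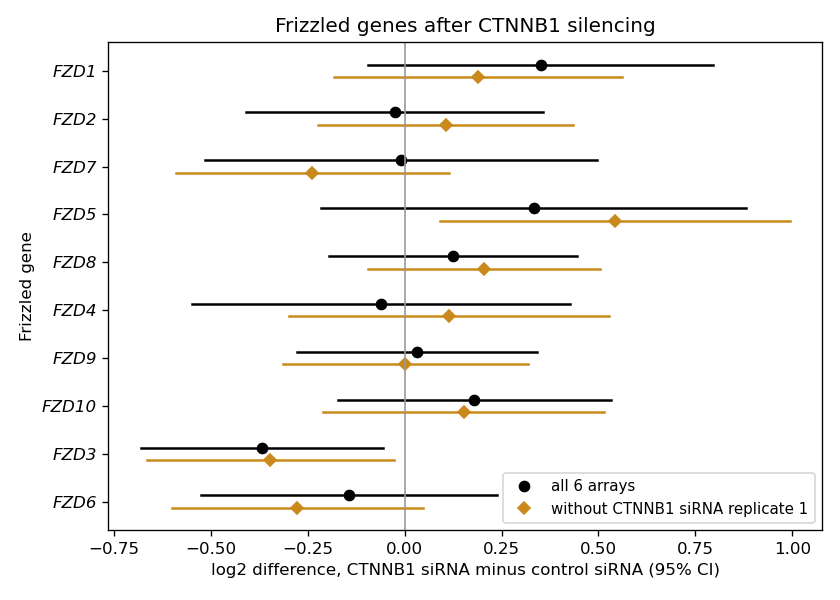
Log2 difference, CTNNB1 siRNA minus control siRNA, of each Frizzled gene with its 95% confidence interval from limma, over all 6 arrays (circles) and without CTNNB1 siRNA replicate 1 (diamonds). The interval of FZD3 (-0.68 to -0.057) is the only one over all arrays that leaves out 0, and without replicate 1 that of FZD5 does so too; no member passed after adjustment.

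CTNNB1 siRNA replicate 1 fell outside the range of the other 5 arrays for 6 of 10 Frizzled genes, a share close to the 55.9% of all clusters. It was the highest array for FZD1, FZD7 and FZD9 and the lowest for FZD2, FZD3 and FZD4. Against the mean of the other CTNNB1 siRNA arrays it was higher by 0.69 for FZD7, 0.49 for FZD1 and 0.40 for FZD6 on the log2 scale. It was lower for FZD5 (-0.63), FZD4 (-0.52) and FZD2 (-0.39). FZD3 was nearly level between them (-0.068), so its separation from the controls did not rest on that array.

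**Figure D3:**
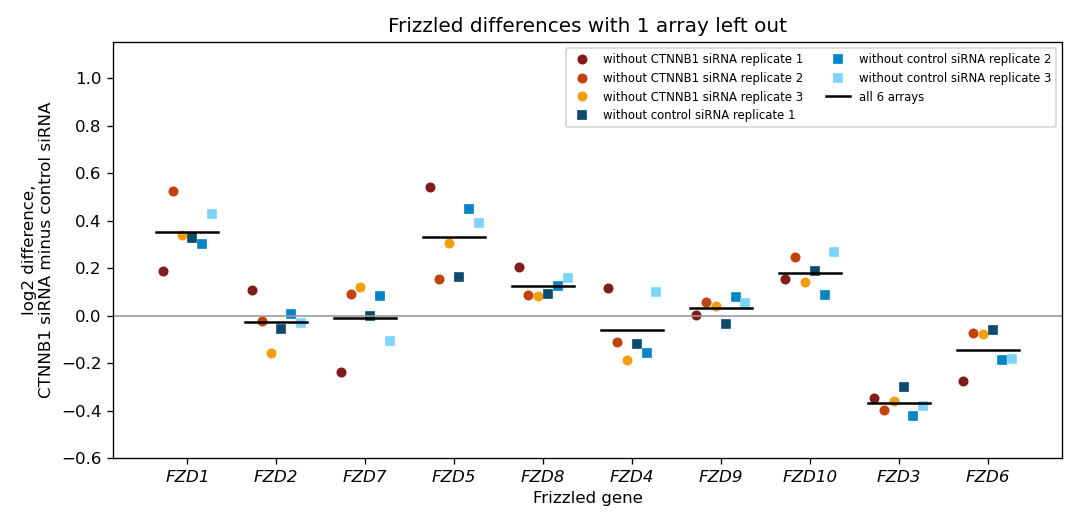
Log2 difference, CTNNB1 siRNA minus control siRNA, of each Frizzled gene with 1 array left out in turn (circles for CTNNB1 siRNA arrays, squares for control siRNA arrays), with a bar for all 6 arrays. FZD3 stays between -0.42 and -0.30, whereas FZD2, FZD4, FZD7 and FZD9 take both signs.

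The sequence at the gene start was available from RefSeq (GRCh38.p14) for 5 members, FZD1, FZD4, FZD5, FZD8 and FZD9, as 250 bases before and 50 after the start. TCF and LEF factors, the DNA-binding partners of beta-catenin, recognise the core CTTTGA, and this was searched on both strands. It was in 0 of these 5 windows, against 12.9% of 35116 promoters of the same length, and the longer CTTTGAT was in 0 of 5 against 2.62%. The related CTTTGT, searched after the sequences had been seen, was in FZD1 alone, against 16.1% of promoters. The absence of these letters from a window says nothing of binding elsewhere. A pair of other motifs was also searched after the sequences had been seen. The CCAAT box, on either strand, was in 4 of 5 windows (FZD1, FZD4, FZD5 and FZD8) against 34.6% of all promoters. The GC box GGGCGG was in 5 of 5, against 45.0% of all promoters and 57.3% of those of tested genes, and the windows held 65.7% to 79.7% G and C against a median of 58.7%. The windows shown are those of FZD1, FZD5 and FZD8, the members with a sequence that had the largest positive differences, with the CCAAT box in capitals where it lies on the opposite strand as ATTGG. It begins 91 bases before the start in FZD1, 199 in FZD5 and 70 in FZD8.
FZD1, chr7:91264183-91264482, plus strand: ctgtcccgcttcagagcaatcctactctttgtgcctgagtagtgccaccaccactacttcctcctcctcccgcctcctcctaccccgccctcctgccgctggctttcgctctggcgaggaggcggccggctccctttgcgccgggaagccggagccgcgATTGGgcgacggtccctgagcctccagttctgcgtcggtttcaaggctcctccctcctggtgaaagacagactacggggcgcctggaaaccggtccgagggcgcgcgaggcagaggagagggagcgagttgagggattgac
FZD5, chr2:207769857-207770156, minus strand: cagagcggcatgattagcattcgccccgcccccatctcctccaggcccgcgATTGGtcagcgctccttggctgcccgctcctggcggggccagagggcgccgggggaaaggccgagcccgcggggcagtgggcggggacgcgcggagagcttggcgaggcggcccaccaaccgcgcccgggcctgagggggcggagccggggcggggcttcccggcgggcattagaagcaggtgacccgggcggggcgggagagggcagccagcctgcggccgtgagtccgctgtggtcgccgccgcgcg
FZD8, chr10:35642247-35642546, minus strand: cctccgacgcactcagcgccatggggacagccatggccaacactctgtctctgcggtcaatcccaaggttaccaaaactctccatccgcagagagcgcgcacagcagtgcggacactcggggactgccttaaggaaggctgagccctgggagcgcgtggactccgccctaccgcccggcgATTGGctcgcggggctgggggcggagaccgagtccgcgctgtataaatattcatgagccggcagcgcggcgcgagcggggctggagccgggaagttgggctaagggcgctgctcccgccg

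The other genes of the receptor complex and its control were taken from fixed lists, and 0 of their members passed in limma over all clusters in either direction. LRP5 and LRP6, the co-receptors of canonical signalling, lay close to the controls. LRP5 was 8.21, 8.27 and 8.33 on CTNNB1 siRNA replicates 1 to 3, against 8.11, 8.36 and 8.20 on the control arrays, and differed by 0.051 (95% confidence interval -0.26 to 0.36). LRP6 differed by -0.061 (-0.44 to 0.31), and by 0.0025 without CTNNB1 siRNA replicate 1. Of the 11 measured co-receptors and accessory receptors, 1 was at an unadjusted p under 0.05, near the 5.64% of all clusters. This was ROR1, a receptor tyrosine kinase that binds WNT5A, at 7.67, 7.92 and 8.27 on CTNNB1 siRNA replicates 1 to 3, against 8.78, 8.50 and 8.85 on the control arrays. The groups did not overlap, as for 13.6% of all clusters, the log2 difference was -0.76 (SE 0.19, limma adjusted p = 0.816), and it was -0.62 without CTNNB1 siRNA replicate 1. RYK, a further Wnt receptor related to tyrosine kinases, differed by -0.33, and by -0.091 without that array.

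Of the 12 measured genes that set how long Frizzled proteins stay at the surface, 2 were at an unadjusted p under 0.05, both lower, against 2.6% of all clusters lower at that level. Without CTNNB1 siRNA replicate 1, 2 higher and 2 lower genes were at that level, against 7.34% of all clusters in either direction. The median of this list was -0.022 (0.022 without CTNNB1 siRNA replicate 1). Groups were apart for 2 lower genes, ZNRF3 and LGR5, and for 2 higher genes, RSPO2 and USP6. Of all clusters, 6.8% had groups apart in the lower and 6.81% in the higher direction. RSPO2 and USP6 are named here after their values were seen. They were not above the 95th percentile of olfactory receptor clusters on any array. ZNRF3, the ubiquitin ligase, was 7.28, 7.94 and 7.71 on CTNNB1 siRNA replicates 1 to 3, against 8.27, 8.22 and 8.17 on the control arrays. Its groups were apart, with a log2 difference of -0.58 (SE 0.19, limma adjusted p = 0.816), and -0.39 without replicate 1. LGR5, the R-spondin receptor, differed by -0.64, and by -0.38 without replicate 1. RNF43, the relative of ZNRF3, differed by -0.22 (95% confidence interval -0.65 to 0.21), its groups overlapped, and leaving out 1 array gave -0.36 (without CTNNB1 siRNA replicate 1) to -0.11 (without CTNNB1 siRNA replicate 3).

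Among 16 measured secreted antagonists and inhibitors, DKK1, which blocks LRP5 and LRP6, was 10.20, 11.01 and 11.05 on CTNNB1 siRNA replicates 1 to 3, against 11.74, 11.29 and 11.16 on the control arrays. Its groups were apart, as for 13.6% of all clusters, with a log2 difference of -0.64 (SE 0.26), and -0.37 without CTNNB1 siRNA replicate 1. NKD1, which binds Dishevelled, differed by -0.49, and by -0.27 without CTNNB1 siRNA replicate 1 or -0.28 without control siRNA replicate 2, and its groups overlapped. Of 9 measured genes of Dishevelled and the complex it recruits, 2 were at an unadjusted p under 0.05 in limma, both lower, against 2.6% of all clusters. Without CTNNB1 siRNA replicate 1 there was 1 at that level, also lower, against 7.34% of all clusters in either direction. Over all arrays, differences were positive for 2, against 49.2% of all clusters, and negative for 7. AXIN2 differed by -0.45, and by -0.52 without CTNNB1 siRNA replicate 1. CSNK1G1, a kinase of the family that phosphorylates LRP6, differed by -0.39 (SE 0.16), and by -0.26 without that array. Groups were apart for both genes, where 6.8% of all clusters were apart and lower. Of 11 planar cell polarity genes, 0 were at an unadjusted p under 0.05, against 5.64% of all clusters. Differences were positive for 3, against 49.2% of all clusters, and negative for 8, with a median of -0.084 that was -0.030 without CTNNB1 siRNA replicate 1. VANGL1, with the smallest p, differed by -0.47, and by -0.29 without control siRNA replicate 1. INVS differed by -0.48, and by -0.14 without CTNNB1 siRNA replicate 1, its lowest array.

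Of 19 measured Wnt ligands, 12 had positive and 7 negative differences with a median of 0.083, where 49.2% of all clusters were positive. Groups were apart for 6 higher ligands and 1 lower, against 6.81% and 6.8% of all clusters. At an unadjusted p under 0.05 in limma were 4 ligands, all higher, against 3.04% of all clusters. Without CTNNB1 siRNA replicate 1 the median was 0.13 and 2 ligands were at that level, both higher. Most were dim: 1 of 19 lay above the median of all tested clusters on all arrays, against 44.9% of all clusters. Above the 95th percentile of olfactory receptor clusters on all arrays were 11 of 19, against 62% of all clusters. Above the 99th were 6, against 51%. WNT8A, with 4.75, 4.90 and 4.80 on CTNNB1 siRNA replicates 1 to 3 against 4.52, 4.35 and 4.53 on the control arrays, was above the 95th percentile on 1 array. WNT9B differed by 0.41 (SE 0.17) and was above the 95th percentile on all 6 arrays but above the 99th on 2. WNT8A could therefore not be set apart from olfactory receptor clusters, and WNT9B not from the brightest of them on every array. WLS, which carries Wnt proteins to the surface, differed by 0.065, and by -0.12 without CTNNB1 siRNA replicate 1. NOTUM, a secreted enzyme that inactivates them, differed by -0.12, by -0.022 without that array and by 0.094 without control siRNA replicate 2.

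**Figure D4:**
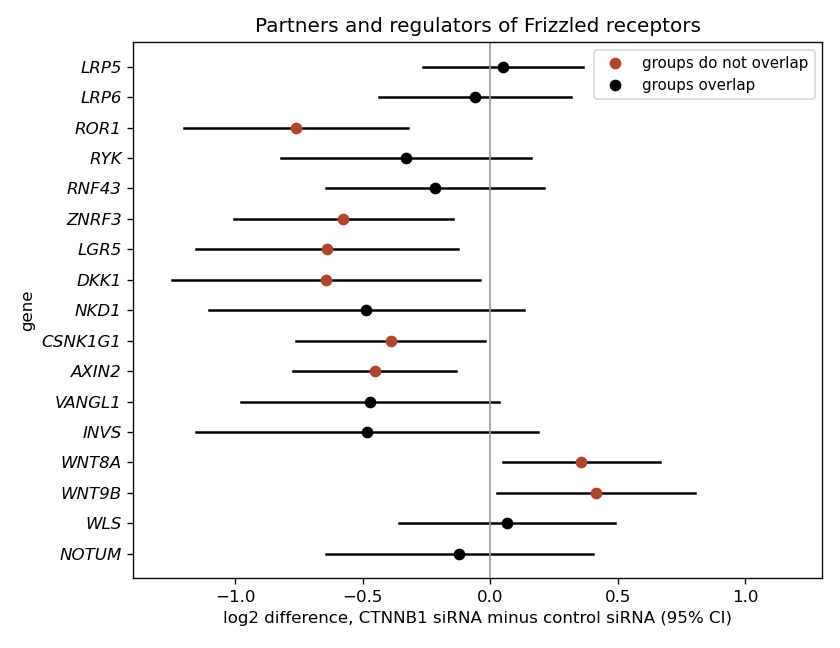
Log2 difference, CTNNB1 siRNA minus control siRNA, with its 95% confidence interval from limma, of genes that act with or on Frizzled receptors, in red where the groups do not overlap. ROR1 (-0.76), LGR5 (-0.64), DKK1 (-0.64) and ZNRF3 (-0.58) lie lowest, LRP5 and LRP6 lie near 0, and no gene passed after adjustment.

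The genes whose pattern was most like that of FZD3, the member with the smallest p, were USP24, NRIP1 and THAP5, with Pearson correlations of 0.990, 0.988 and 0.988 over the 6 arrays among 9257 genes at or above the median level. These are descriptions over 6 points that include the difference between the groups, and 44 genes exceeded 0.95. USP24, a deubiquitinase gene, was 8.12, 8.23 and 8.12 on CTNNB1 siRNA replicates 1 to 3, against 8.54, 8.39 and 8.46 on the control arrays. NRIP1, a nuclear receptor corepressor gene, had the largest difference of the 3, at -0.57.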

How the data were processed

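The authors deposited log2 expression values per transcript cluster, and the submitters' processing notes name RMA and version 1.1 of Affymetrix Expression Console. They started from 500 ng of total RNA per sample per the labels' protocols. RMA corrects background, brings all arrays to the same distribution and summarises probes, which hides any change shared by all genes and compresses differences of dim clusters. The log2 scale was read from the deposited values, and the genome build is not given in the sources used here. Array medians were 5.38 to 5.46. The number of arrays limits the precision.

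Of 33297 clusters, 19460 were paired with exactly 1 gene symbol by the platform annotation and were tested; 1754 with several symbols and 12083 not listed with a gene were left out. Symbols were updated through RefSeq (GRCh38.p14) gene identifiers for 19429. For a gene with several clusters, the cluster with the highest mean was used. Groups were compared with limma 3.58.1 in R 4.3.3 (lmFit and eBayes, 2-sided, Benjamini-Hochberg adjustment over all tested clusters, threshold 0.05), without filter, weights or block, as CTNNB1 siRNA minus control siRNA. The fit was tested on simulated data. The 95% confidence intervals are limma's.

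The Frizzled members and all gene lists were chosen with earlier results of these data known. Genes named are CTNNB1, all members, the 2 genes with the smallest p of each list where none passed, 6 fixed Wnt pathway genes, and the 3 genes most correlated with the leading member; not every gene the rule allows is named. COL3A1, RSPO2 and USP6 are named outside this rule. Some genes of the lists are not analysed here. Alternatives were a replicate block, array weights, no dim clusters, a shared array median, another variance prior, averaged clusters and leaving out each array.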

Additional observations from a re-analysis of the deposited data

How the results depend on the processing

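No Frizzled gene passed under any of the 12 alternatives, with a smallest adjusted p of 0.496, for FZD3 with array quality weights. Of 119 values of the members under the alternatives, 108 kept their sign and 11 did not, all of members near 0. With 1 array left out, FZD2 lay between -0.16 and 0.11, FZD4 between -0.19 and 0.11, FZD7 between -0.24 and 0.12 and FZD9 between -0.035 and 0.078. FZD2 turned to 0.060 with array weights, 0.11 without CTNNB1 siRNA replicate 1 and 0.0079 without control siRNA replicate 2. FZD4 turned to 0.0015 with array weights, 0.11 without CTNNB1 siRNA replicate 1 and 0.10 without control siRNA replicate 3. FZD7 turned to 0.091 without CTNNB1 siRNA replicate 2, 0.12 without CTNNB1 siRNA replicate 3 and 0.084 without control siRNA replicate 2. FZD9 turned to -0.019 with array weights and -0.035 without control siRNA replicate 1. The family median lay between -0.019 and 0.11 when 1 array was left out. The clusters called among all tested numbered 0 with the replicate block, 13 with array weights, 0 without the dimmest 40%, and 0 to 10 when 1 array was left out. With array weights CTNNB1 passed, at -1.12 (adjusted p = 0.0219). FZD1 fell below the filter on dim clusters and has no value there. The cause of these changes was not tested.

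Replicate numbers are shared by the groups, and deviations of same-numbered arrays from their group means correlated by 0.092, 0.12 and 0.098. The labels do not state whether same-numbered arrays were prepared together. These small correlations cannot decide it, since a shared day or passage could leave a weak trace. With the replicate block the difference of FZD3 was -0.37 (adjusted p = 0.743).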
